A study of Mus musculus with 6 samples.

Results

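The interleukin-1 family genes Il1a, Il1b, Il18, Il33, Il1rn, Il18bp, Il1r2, Il1rl1, Il1r1 and Il1rap were followed in N18-Fms cells, a mouse prostate cancer line stimulated through the CSF-1 receptor. These 10 genes, taken by name as a family, are all among the 36163 gene names on the array, where 14 probes measure them. N18-Fms cells (N18-CFMS in the labels) are a neomycin-resistant, luciferase-transfected derivative of the clonal TRAMP C2H line, which comes from a prostate tumor of the TRAMP mouse, and they were transduced with a retrovirus carrying murine c-fms, the gene of the CSF-1 receptor, and sorted for it. They also release CSF-1 of their own. All cells were grown with serum and dihydrotestosterone. Expression was compared between unstimulated cells (treatment label "vehicule"), cells given recombinant murine CSF-1 (100 ng/mL) during 24 h, and cells given it during 48 h. Each group had 2 arrays, and the RNA came from 2 independent experiments. Both comparisons with unstimulated cells use the same unstimulated arrays. The times are those of the labels; the methods of the study give shorter ones.

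The interleukin-1 family joins cytokines that are made by epithelial, stromal and myeloid cells and start inflammation. IL-1α and IL-1β share a receptor chain, encoded by Il1r1, while IL-18 and IL-33 each bind a chain of their own. Each cytokine then recruits a second chain, which for IL-1 and IL-33 is the accessory protein encoded by Il1rap. Both chains signal through MyD88 to NF-κB. The family carries its own brakes. The antagonist encoded by Il1rn occupies the IL-1 receptor without signaling, the decoy receptor encoded by Il1r2 traps IL-1, IL-18 binding protein traps IL-18, and a soluble form of ST2, the IL-33 receptor encoded by Il1rl1, traps IL-33. IL-33 is stored in the nucleus of barrier cells and released when they are damaged, while IL-1β and IL-18 are made as precursors that are cut by inflammatory caspases.

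Values are log2 signals relative to the 75th percentile of the array, called relative log2 signals below; they compare arrays for 1 probe and do not rank genes by abundance. A gene was tested where its probe exceeded background clearly on the 2 arrays of any group, and was called changed at an adjusted p under 0.05 (limma, Benjamini-Hochberg over all genes tested) with a change of at least 2-fold. Of 24648 genes tested, 4.55% were called higher and 1.62% lower at 24 h, and 3.95% were called higher and 1.46% lower at 48 h. Higher genes made up 73.7% of the calls at 24 h and 73% at 48 h, but 45.4% and 61.7% when arrays were centred on their median instead, which moved the median change of all genes by -0.28 and -0.1 on the log2 scale, and 61.6% at 24 h after quantile normalization. Between 58.7% and 72% of the spots were well above background on each array, none was saturated, and the 24 h array 1 lay on another slide than the other 5 arrays. Among 8 epithelial markers, 5 were well above background on both unstimulated arrays; Cdh1, which encodes E-cadherin, was on none of the 6 arrays and Epcam on 1 of the 48 h arrays. In bulk RNA, a change in the share of cells that express a gene and a change in its RNA per cell cannot be told apart.

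The probes behind the main results are given here by the first 30 of their 60 bases, as the array files list them, because for Il1rl1 and Il1rap the transcript a probe matches decides what it measures. The probes for Il33 (chr19:30035101-30035160, plus strand, mm9), Il18 (chr9:50389761-50389820, plus strand) and Il18bp (chr7:109164100-109164159, minus strand) begin as follows.
Il33: gtgaatctgtacgatatctttaaagtagta
Il18: aggatgaaaatggggataaatctgtaatgt
Il18bp: aaactcaagcttcacttctaccctagatta
Il1rl1 has 1 probe annotated to the shorter transcript, which encodes soluble ST2 (chr1:40504769-40504828, plus strand), and 2 probes annotated to the longer transcript of membrane ST2, called membrane probe 1 (chr1:40520014-40520073) and membrane probe 2 (chr1:40522187-40522246).
Il1rl1 soluble: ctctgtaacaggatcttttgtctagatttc
Il1rl1 membrane 1: ccttacccaaattgccattacagtcgagca
Il1rl1 membrane 2: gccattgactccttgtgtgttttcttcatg
Il1rap likewise has a probe annotated to the transcript of the soluble accessory protein (chr16:26701498-26701557, plus strand), a probe annotated to that of the membrane form (chr16:26716515-26716574), and another probe annotated to an Ensembl transcript (chr16:26725291-26725350). Which accession encodes the soluble form and which the membrane form is background knowledge, and the exon under each probe was not checked, so soluble and membrane here name the annotation of a probe.
Il1rap soluble: gatgttgtcaacgcctttgtttctaaatgt
Il1rap membrane: catacatctttcagtagtcattggcaaaat

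Il33 rose at both times and Il18bp rose at 48 h, while no family gene was called lower. Of the 10 genes, 6 were well above background on all 6 arrays. Among these 6, 1 was called higher at 24 h, Il33, where 3.25% of all genes above background on every array were, and 2 at 48 h, Il33 and Il18bp, where 3.51% were. Il18 also passed the threshold at both times. It entered the test only through the 48 h arrays, where it was high. It is therefore described by its values and a ratio to a background level, without adjusted p-values. Il1a and Il1b were not well above background on any array and Il1r2 was on 1 array only, so these 3 genes were not tested. The remaining 4, Il1rn, Il1rl1, Il1r1 and Il1rap, did not reach the threshold with the probe that stood for the gene.

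**Figure D1:**
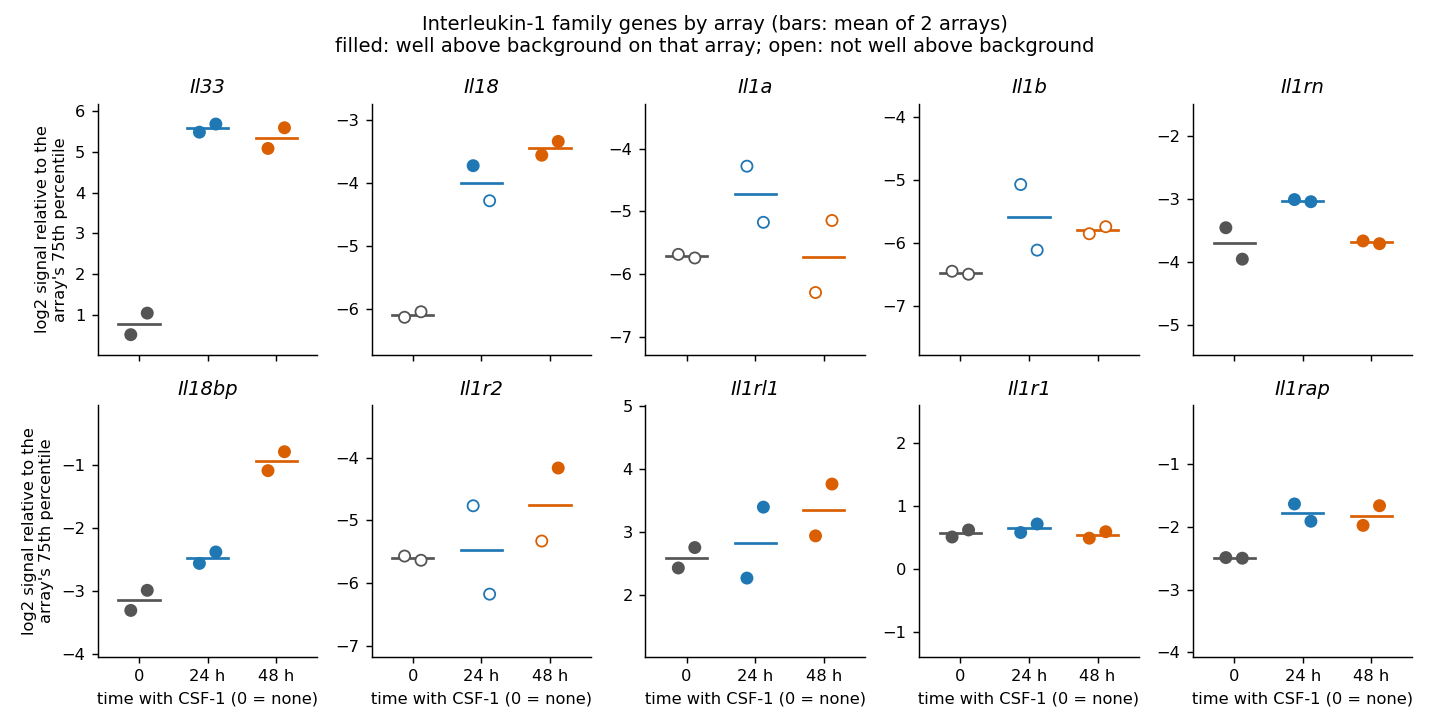
Relative log2 signal (y axis, log2 units against the 75th percentile of the array; each panel has its own range) of the 10 family genes in each array, by time with CSF-1 (x axis, 0 is unstimulated). Points are arrays, filled where the probe was well above background and open where it was not, and lines are means of 2 arrays; Il33 stands between 5.08 and 5.68 on the stimulated arrays against 0.52 and 1.04 on the unstimulated ones.

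Il33 gave the largest change of the family genes tested. Its relative log2 signal was 0.52 and 1.04 in unstimulated cells, 5.48 and 5.68 after 24 h, and 5.08 and 5.59 after 48 h. All 4 stimulated arrays lay far above both unstimulated ones, and the arrays of the 2 times overlapped. In raw intensity units, before scaling, the spot read 787 and 1260 in unstimulated cells against 25500 and 30600 at 24 h and 18700 and 29000 at 48 h. Il33 was thus already measured above background without added CSF-1. The fold change was 27.8 at 24 h (log2 4.799 ± 0.25, SE, n = 2 arrays a group; limma adjusted p = 0.00145) and 23.5 at 48 h (log2 4.55 ± 0.25; adjusted p = 0.00138). It was called under every alternative tried except the test named in the study's methods, which uses each gene's own spread and gave adjusted p = 0.139 at 24 h and 0.138 at 48 h with the same fold changes.

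Il18, the other cytokine of the family that was tested, was much closer to background. Its relative log2 signal was -6.13 and -6.05 in unstimulated cells, not well above background, -3.72 and -4.28 at 24 h, where it was well above background on array 1 only, and -3.55 and -3.33 at 48 h, well above background on both arrays. The 3 groups did not overlap, but the size of the change is uncertain, since the unstimulated signals were not well above background. With each unstimulated array taken at its lowest signal well above background (-4.76 and -5.59), Il18 was 3.31-fold higher at 48 h. This is no strict bound. Other probes read higher than these levels without being well above background, such as Cdh5 at -4.47 on array 1 and Krt18 at -4.59 on array 2. The same calculation gave 2.25-fold at 24 h. It used the measured value of 24 h array 2, which was not well above background, so this is no strict bound either. The call at 24 h was lost without unstimulated array 2, and a fit of the 24 h and unstimulated arrays alone could not test the gene. With a background correction that adds 50 intensity units to every signal, the differences were 0.46 at 24 h and 0.58 at 48 h on the log2 scale, under 2-fold. The raw intensities of this spot were 7.84 and 9.25 in unstimulated cells and 30.7 to 59.8 in stimulated ones.

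The IL-1 cytokines themselves, IL-1α and IL-1β, are the founding members of the family and its best known triggers of fever and of the acute phase. Il1a and Il1b read between 7.06 and 29.4 intensity units on the 6 arrays and were not well above background on any of them, so neither a level nor a change can be given. On arrays 1 and 2 at 24 h, Il1a read 29.4 and 16.5 units against 10.7 and 11.4 in unstimulated cells. Il1b read 20.6 and 8.6 at 24 h against 7.19 and 7.43, as the mean of 10 spots of its probe. In both genes the higher value came from array 1, the array on the other slide, which also had the highest share of spots above background, and the part of the slide was not tested.

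**Figure D2:**
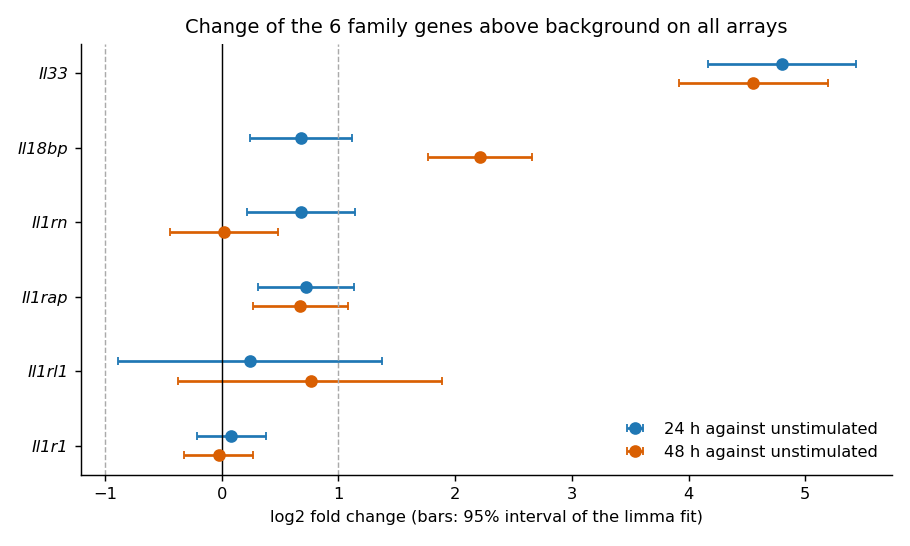
Log2 fold change (x axis) of the 6 family genes above background on all arrays (rows) at 24 h and at 48 h against unstimulated cells. Points are estimates from the limma fit of all 6 arrays, bars its 95% intervals and dashed lines a 2-fold change; the intervals of Il33 run from 4.17 to 5.43 at 24 h and from 3.92 to 5.19 at 48 h, beyond the 2-fold line.

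Among the inhibitors of the family, Il18bp, which encodes the secreted protein that neutralizes IL-18, rose at 48 h. Its relative log2 signal was -3.31 and -2.99 in unstimulated cells, -2.57 and -2.38 at 24 h, and -1.09 and -0.79 at 48 h. The groups stood in the order of time without overlap. Il18bp was 4.64-fold higher at 48 h (log2 2.21 ± 0.18, SE, n = 2; adjusted p = 0.00316), whereas at 24 h the ratio of 1.6 (log2 0.68 ± 0.18; adjusted p = 0.0618) did not pass. Compared directly, the 48 h arrays were 2.90-fold higher than the 24 h arrays. This difference had the smallest unadjusted p of the family between the times (0.000223) but an adjusted p of 0.104, and it passed the threshold in 2 of the alternatives, with normexp background correction (log2 1.08, adjusted p = 0.0126) and with an intensity trend in the fit (adjusted p = 0.0193). Across all genes tested, 0% were called between 24 h and 48 h and 13.6% had an unadjusted p under 0.05, as did Il18bp and Il1rn. Il18 is left out here, since it entered the test only through the 48 h arrays, where it was high.

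Il1rn, the gene of the IL-1 receptor antagonist, did not pass the threshold. It measured -3.45 and -3.95 in unstimulated cells, -3.005 and -3.04 at 24 h, and -3.66 and -3.71 at 48 h. Both 24 h arrays lay above the other 4, and the 48 h arrays lay between the unstimulated ones. Its ratio to unstimulated cells was 1.6 at 24 h (log2 0.68 ± 0.18; adjusted p = 0.0676) and 1.01 at 48 h (log2 0.02 ± 0.18; adjusted p = 0.964), and between the times it was 0.632 (unadjusted p = 0.0134, adjusted p = 0.237). Il1r2, the decoy receptor that binds IL-1 without signaling, read 33.6 intensity units on 48 h array 2, the only array where it was well above background, and 8.27 to 21 on the other 5 arrays.

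The receptor of IL-33 has probes annotated to 2 transcripts, and a probe for the membrane form passed the threshold at 48 h where the probe for the soluble form did not. At the probe for soluble ST2, the brightest of the gene, the relative log2 signal was 2.43 and 2.75 in unstimulated cells, 2.27 and 3.40 at 24 h, and 2.94 and 3.76 at 48 h. The 24 h arrays lay on either side of both unstimulated ones. The fold changes of 1.18 at 24 h and 1.69 at 48 h did not pass the threshold (adjusted p = 0.77 and 0.318), and the 95% interval at 48 h ran from -0.37 to 1.89 on the log2 scale.

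Membrane probe 1 rose at 48 h. It measured -2.27 and -2.31 in unstimulated cells, -2.07 and -1.84 at 24 h, and -1.12 and -0.48 at 48 h. The 3 groups did not overlap. In the fit of every probe on its own, where 3.6% of 34814 probes were called higher at 48 h and 4.48% at 24 h, its fold change was 2.81 at 48 h (log2 1.49 ± 0.23; adjusted p = 0.0214) and 1.26 at 24 h (adjusted p = 0.398). Membrane probe 2 gave 2.03 and 2.39, then 2.15 and 2.74, then 3.14 and 3.99, a fold change of 2.55 at 48 h that just missed the threshold (adjusted p = 0.0668). The 2 membrane probes therefore gave a like size of change at 48 h, 1 on each side of the threshold. Between the times, membrane probe 1 differed by 2.23-fold (unadjusted p = 0.00345, adjusted p = 0.175).

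Within each array, the change at the membrane probes can be set against the change at the soluble probe, both relative to the unstimulated mean, which takes out what the probes of an array share. For membrane probe 1 the difference of the log2 changes was 0.82 and 0.64 on the 48 h arrays, 0.54 and -0.36 on the 24 h arrays, and 0.18 and -0.18 on the unstimulated ones. For membrane probe 2 it was 0.58 and 0.60 at 48 h, 0.26 and -0.28 at 24 h, and -0.01 and 0.01 without CSF-1. At 48 h both membrane probes thus gained on the soluble probe on both arrays, while at 24 h the arrays pointed in opposite directions. These differences are given as a description, without a test, since the pair of probes was looked at after the values were known.

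**Figure D3:**
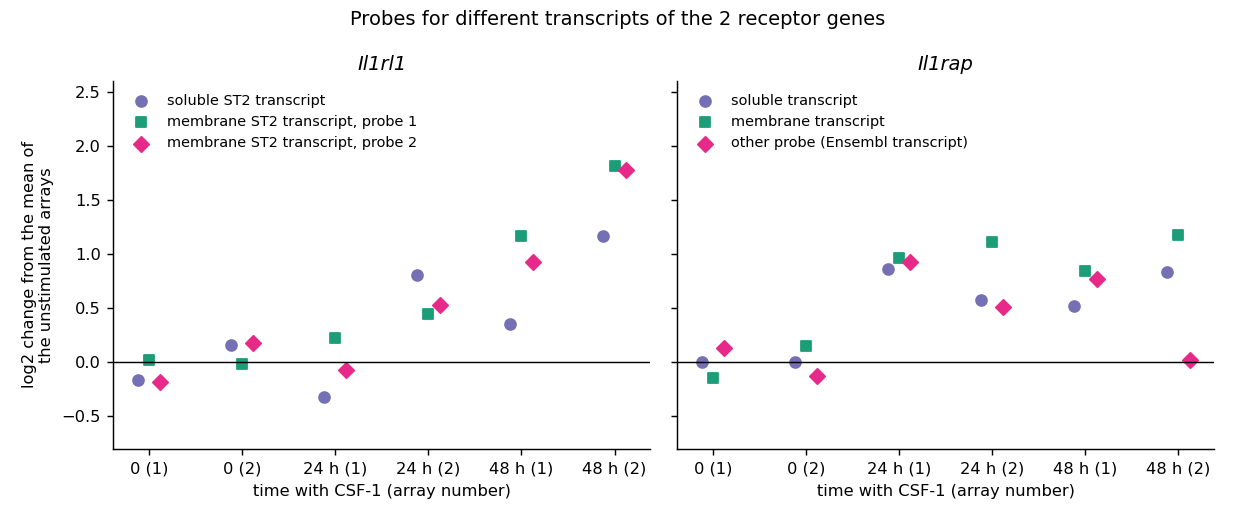
Log2 change of each probe from the mean of the unstimulated arrays (y axis) on each of the 6 arrays (x axis, time with CSF-1 and array number) for the soluble and membrane transcripts of Il1rl1 (left) and for the 3 probes of Il1rap (right). On the 48 h arrays the membrane probes of Il1rl1 stand at 0.93 to 1.81 and its soluble probe at 0.35 and 1.17.

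Il1rap encodes the accessory chain that the receptors of IL-1 and IL-33 share. Its probe for the membrane form rose at both times. The relative log2 signal there was -3.32 and -3.02 in unstimulated cells, -2.21 and -2.06 at 24 h, and -2.33 and -1.99 at 48 h, with all stimulated arrays above both unstimulated ones. In the fit of every probe on its own, 4.48% of 34814 probes were called higher at 24 h and 3.6% at 48 h. There the fold change was 2.05 at 24 h (log2 1.03 ± 0.18, adjusted p = 0.0252) and 2.01 at 48 h (log2 1.01 ± 0.18, adjusted p = 0.0285), close to the 2-fold limit. The brighter probe for the soluble form, which stood for the gene, measured -2.49 and -2.50, then -1.64 and -1.91, then -1.98 and -1.67. Again the stimulated arrays did not overlap the unstimulated ones, but the fold changes were 1.65 at 24 h and 1.59 at 48 h, under 2-fold. The adjusted p was 0.0443 at 24 h and 0.0517 at 48 h in the fit of genes. In the fit of every probe it was 0.049 and 0.0591. The probe for the Ensembl transcript gave fold changes of 1.64 and 1.32 (adjusted p = 0.175 and 0.432), and its 48 h arrays stood apart, at -3.26 and -4.01.

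Il1r1, the signaling receptor of IL-1, was the steadiest of the family genes tested. Its relative log2 signal lay between 0.49 and 0.72 on the 6 arrays, and the 3 groups overlapped. Fold changes were 1.06 at 24 h and 0.984 at 48 h (adjusted p = 0.691 and 0.922), with 95% intervals on the log2 scale from -0.21 to 0.38 and from -0.32 to 0.27, so a change of 2-fold in either direction lies outside both intervals.

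The windows before the transcription starts of Il33, Il18 and Il18bp are shown because these 3 genes passed the threshold. Il33 and Il18 passed at both times, Il18 only after entering the test through its 48 h arrays, and Il18bp passed at 48 h. The windows were searched for a few textbook elements. RefSeq (GRCm38.p6) places 15 starts at the 10 family genes, all matched by symbol. In the 250 bases before each start the search covered, on both strands, the TATA element (TATAAA), the AP-1 element (TGANTCA), the STAT element GAS (TTCNNNGAA), the interferon element ISRE and the NF-κB consensus. Capitals mark matches.
Il33, first start (chr19:29924863-29925112, plus strand): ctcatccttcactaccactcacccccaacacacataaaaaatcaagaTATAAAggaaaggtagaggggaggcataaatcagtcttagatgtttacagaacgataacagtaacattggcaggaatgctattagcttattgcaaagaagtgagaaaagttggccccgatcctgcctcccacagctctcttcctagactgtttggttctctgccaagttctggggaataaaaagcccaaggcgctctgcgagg
Il33, second start (chr19:29945540-29945789, plus strand): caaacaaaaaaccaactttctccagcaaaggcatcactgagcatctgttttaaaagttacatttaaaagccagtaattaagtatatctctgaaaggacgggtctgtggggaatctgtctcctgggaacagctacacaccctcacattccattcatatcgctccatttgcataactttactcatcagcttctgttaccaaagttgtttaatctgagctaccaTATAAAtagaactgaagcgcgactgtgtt
Il18 (chr9:50554450-50554699, plus strand): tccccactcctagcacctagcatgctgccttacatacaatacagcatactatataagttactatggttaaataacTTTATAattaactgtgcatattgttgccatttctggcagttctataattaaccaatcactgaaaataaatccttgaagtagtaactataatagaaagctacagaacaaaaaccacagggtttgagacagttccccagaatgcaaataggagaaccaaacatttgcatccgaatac
Il18bp (chr7:102018233-102018482, minus strand): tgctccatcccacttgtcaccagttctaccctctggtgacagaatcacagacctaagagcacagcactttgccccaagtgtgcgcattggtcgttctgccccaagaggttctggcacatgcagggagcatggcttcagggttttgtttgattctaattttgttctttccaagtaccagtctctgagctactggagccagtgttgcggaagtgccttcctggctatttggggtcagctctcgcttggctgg

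The second start of Il33 held TATAAA from 29 to 24 bases before the start, and its first start and Il18 held the same letters farther away, 203 and 175 bases before the start at their outer ends, at Il18 on the opposite strand. Of all 32851 promoter windows of this length, 12.4% hold this element. The windows of Il33, Il18 and Il18bp held no match to the AP-1, GAS, ISRE or NF-κB letters, which are found in 6.75%, 7.02%, 2.98% and 7.25% of all windows. In the other family genes, AP-1 letters were found at Il1a and at the first start of Il1rn, a GAS match at Il1r2 and an NF-κB match at the second start of Il1r1. These matches say only which letters stand in a short window.

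Among the other genes of the family, Il18rap, the second chain of the IL-18 receptor, rose at both times. It measured -2.48 and -2.22 in unstimulated cells, -1.05 and -0.79 at 24 h, and -1.36 and -1.03 at 48 h, without overlap of stimulated and unstimulated arrays. This made a 2.69-fold rise at 24 h (adjusted p = 0.0103) and a 2.23-fold rise at 48 h (adjusted p = 0.0187). The call at 24 h was lost without either unstimulated array or 24 h array 2 (adjusted p between 0.059 and 0.0785), and that at 48 h without any of these or either 48 h array (between 0.0658 and 0.1), with normexp (log2 0.81) and without the filter on dim probes (adjusted p = 0.0713). Its partner Il18r1, the chain that binds IL-18, was not well above background in unstimulated cells and was on 1 of 2 arrays at each time. Il18r1 was compared with its measured signal on unstimulated array 1 and with the lowest signal well above background on unstimulated array 2. Its mean was 2.30-fold higher at 24 h and 1.80-fold at 48 h. These means include arrays where it was not well above background, so they give no strict bound, and it was not tested. Sigirr, an inhibitory member of the receptor family, gave fold changes of 1.91 (adjusted p = 0.0142) and 1.56 (adjusted p = 0.0367), under 2-fold.

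Of the 11 other family genes, 3 were tested and 1 was called higher at each time, against 4.55% of all genes at 24 h and 3.95% at 48 h. The 3 tested had a median log2 change of 0.93 at 24 h and 1.16 at 48 h, against 0.04 and -0.04 over all genes tested. Il1f10, which encodes IL-38, read 0.18 on 48 h array 1 and between -3.93 and -3.07 on the other 5 arrays, so its fold change of 4.01 at 48 h rests on 1 array (adjusted p = 0.332). The IL-36 genes are listed on the array under older names. Il36rn, Il36a and Il36b were well above background on 1 array at 48 h and on none before, and Il36g was on 1 array at each time with CSF-1. Il1rl2 and Il1rapl1 were well above background on 1 array of each group, and Il1rapl2 on none.

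Behind the receptors, 17 of 18 signaling genes were tested and 1 was called higher, at both times, a share near the 4.55% and 3.95% of all genes. This was Myd88, the adaptor that joins the receptors to their kinases. Its relative log2 signal was 1.40 and 1.70 in unstimulated cells, 2.88 and 3.03 at 24 h, and 2.40 and 2.86 at 48 h. The fold change was 2.65 at 24 h (adjusted p = 0.0139) and 2.11 at 48 h (adjusted p = 0.0279). The call at 24 h was lost without either unstimulated array or either 24 h array (adjusted p between 0.0606 and 0.0939), and the call at 48 h without any 1 of the 6 arrays (between 0.0593 and 0.129), with median centring (log2 0.978) and without the filter on dim probes (adjusted p = 0.093). The median change of the list was 0.01 at 24 h and -0.10 at 48 h on the log2 scale.

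Of 16 genes linked to cytokine processing, among them proteases and an inhibitor of proteases, 12 were tested. At each time 2 were called higher, against 4.55% of all genes at 24 h and 3.95% at 48 h. Casp4, an inflammatory caspase that senses bacterial lipopolysaccharide inside the cell, measured -0.71 and -0.59 in unstimulated cells, 2.57 and 2.69 at 24 h, and 2.59 and 3.26 at 48 h. Its fold change was 9.72 at 24 h (adjusted p = 0.00289) and 11.9 at 48 h (adjusted p = 0.00193). Serpinb1a, an inhibitor of neutrophil proteases, was 3.72-fold higher at 24 h (adjusted p = 0.0101) and 6.29-fold higher at 48 h (adjusted p = 0.00425). Its call at 24 h was lost without unstimulated array 2 (adjusted p = 0.0761), 24 h array 1 (0.0553) or 24 h array 2 (0.0776). Casp1, the caspase that cuts IL-1β and IL-18, was well above background on 1 array only. The median change of the list was 0.40 at 24 h and 0.30 at 48 h.

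**Figure D4:**
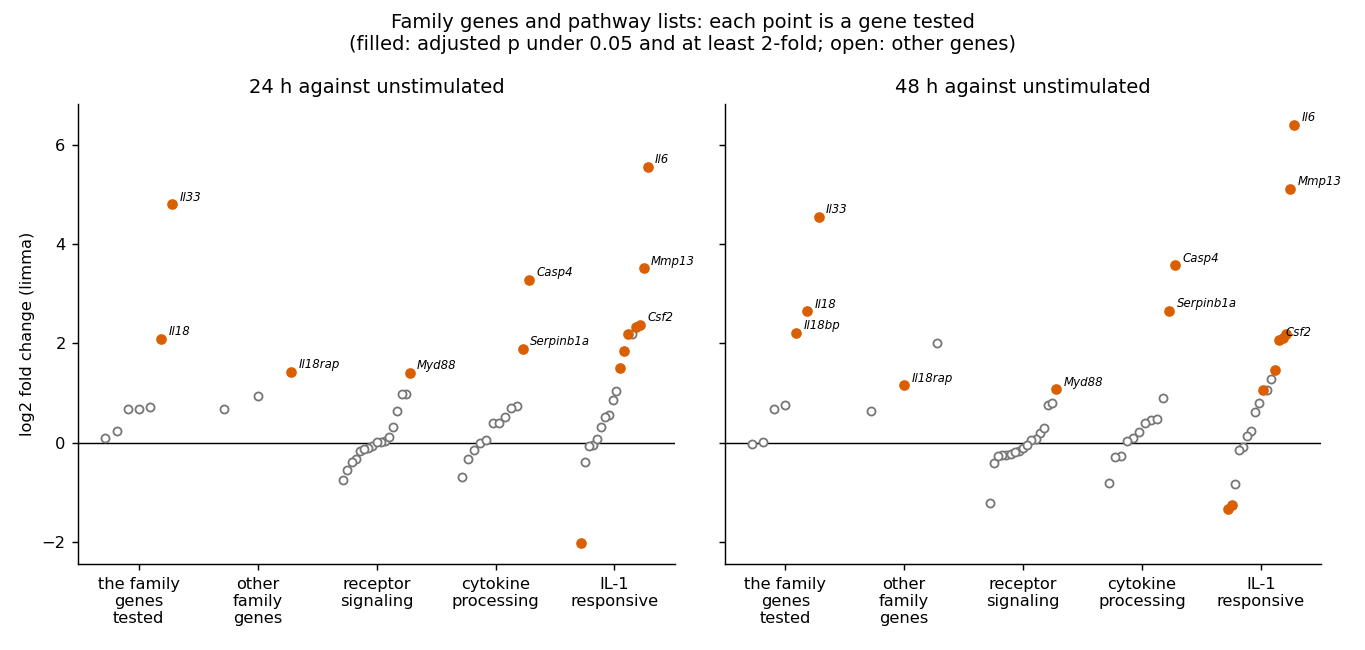
Log2 fold change (y axis) of each gene tested at 24 h (left) and at 48 h (right), for the family genes and the 4 gene lists (x axis). Filled points were called, open points were not, and the named points are the family genes called and the list genes given in the text; the list of genes that respond to IL-1 reaches 5.56 at 24 h and 6.41 at 48 h, at Il6.

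Of 23 genes known to respond to IL-1, 18 were tested, and 14 exceeded background clearly on each unstimulated array. At 24 h 7 were called higher and 1 lower, against 4.55% and 1.62% of all genes. At 48 h 7 were called higher and 2 lower, against 3.95% and 1.46%. Both counts of 7 include Il6, Mmp13 and Csf2, which entered the test only through stimulated arrays, where they were high, so these calls are not taken as support. The other genes called higher were well above background on all arrays. They were Nfkbiz and Cxcl1 at both times, Lcn2 and Ptgs2 at 24 h, and Ccl2 and Mmp3 at 48 h. The median log2 changes of the 18 genes were 0.95 and 0.93. These genes, and the list as a whole, also respond to other signals than IL-1. Il6, Mmp13 and Csf2 had the largest fitted changes over both times, but each was not well above background on at least 1 unstimulated array, so that the sizes depend on signals near background.

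Il6, the cytokine of the acute phase, measured -6.86 and -5.44 in unstimulated cells, well above background on array 2 only, -0.71 and -0.47 at 24 h, and -0.28 and 0.80 at 48 h. The measured difference was 5.56 on the log2 scale at 24 h and 6.41 at 48 h. Il6 and Mmp13 entered the test only through stimulated arrays, where they were high, so their adjusted p-values are not given. The difference of Il6 was 4.85 and 5.70 without unstimulated array 1 and 2.45 and 3.23 with normexp. Its call at 24 h was lost without 24 h array 2. Mmp13, a collagenase, measured -4.74 and -3.36 in unstimulated cells, well above background on array 2 only, -1.12 and 0.06 at 24 h, and 0.46 and 1.68 at 48 h. Its log2 difference was 3.52 at 24 h and 5.12 at 48 h. It was 2.82 and 4.43 without unstimulated array 1 and 2.13 and 3.56 with normexp. Calls of Mmp13 were lost at both times without the filter on dim probes. At 24 h the call was lost without any 1 of 5 arrays, 48 h array 2 being the exception. At 48 h it was lost without unstimulated array 1 or either 48 h array.

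Csf2, which encodes GM-CSF, was not well above background in unstimulated cells. Against the lowest signals well above background on those arrays, it was 2.54-fold higher at 24 h, which is no strict bound. At 48 h the same calculation gave 2.07-fold, but 1 of the 2 arrays was not well above background, so this is no strict bound either. Csf2 entered the test only through the 24 h arrays, where it was high, so its adjusted p-values are not given. With normexp it was under 2-fold at both times (log2 0.533 and 0.421), and the call at 48 h was also lost without the filter on dim probes. The call at 24 h was lost without unstimulated array 2 or either 24 h array. That at 48 h was lost without either unstimulated array, 24 h array 2 or 48 h array 2. Cxcl1, a neutrophil chemokine that was well above background on all arrays, was 4.53-fold higher at 24 h (adjusted p = 0.00735) and 4.31-fold higher at 48 h (adjusted p = 0.0077). Its call at 24 h was lost without 24 h array 2, and that at 48 h without unstimulated array 1. Other omissions are not listed for this gene.

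Vcam1, an adhesion molecule, was called lower at both times, at 0.246 and 0.396 of the unstimulated level (adjusted p = 0.00986 and 0.0285). Its next brightest probe gave log2 changes of -1.123 at 24 h and -0.912 at 48 h, the latter under 2-fold. Hp, which encodes haptoglobin, was called lower at 48 h, at 0.415 of the unstimulated level (adjusted p = 0.0386). Vcam1 lost its call at 24 h without either unstimulated array or either 24 h array (adjusted p between 0.0556 and 0.0756), and at 48 h without any 1 array other than 48 h array 1 (between 0.0561 and 0.13). Hp lost its call without any 1 array other than 24 h array 1 (between 0.0658 and 0.174), and without the filter on dim probes neither gene was called at 48 h (adjusted p = 0.0931 and 0.116).

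The count of IL-1 responsive genes called higher depended on single arrays. At 24 h it was 4 without unstimulated array 1, 2 without unstimulated array 2, 4 without 24 h array 1, 0 without 24 h array 2, 5 without 48 h array 1 and 7 without 48 h array 2. At 48 h the same omissions gave 1, 4, 5, 3, 3 and 3 genes, and without the filter on dim probes it was 2.

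Markers of other cells moved in several lists. Of all genes tested, 4.55% were called higher and 1.62% lower at 24 h, and 3.95% higher and 1.46% lower at 48 h. Levels summed over a list are given as multiples of the 75th percentile of the array, and in most lists 1 bright probe made up most of the sum, so each is read beside the genes called. Of 12 macrophage markers, 8 were tested and 2 were called, Mrc1, 19.3-fold higher at 24 h and 11.8-fold at 48 h, and Mpeg1, 8.68-fold higher at 48 h. The summed level was 45.1 and 40.4 in unstimulated cells and between 29.3 and 41 in stimulated ones, of which Itgam made up at least 71.9%, and Lyz2 was well above background on no array.

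Among 9 markers of mast cells and lymphoid cells, which carry ST2, 5 were well above background on no array, Kit, Cpa3, Fcer1a, Cd3g and Il7r. Mcpt4 was called higher at 48 h (5.03-fold, with 1 unstimulated array well above background) and Gata3 lower at both times (0.415 and 0.386 of the unstimulated level). Their summed level was 8.59 and 6.49 in unstimulated cells and 5.79 to 7.43 in stimulated ones, at least 73.4% of it from Cd3e. Of 6 neutrophil markers, 3 were tested, Elane, Csf3r and Ltf, and none was called. S100a8, S100a9 and Mpo were too dim to be tested. Their summed level was 125 to 143 in unstimulated and 127 to 137 in stimulated cells, with 41.9% to 55.8% of it from Csf3r and Elane as the other bright probe. Of 5 endothelial markers, Cdh5 was called higher (14.6-fold at 24 h and 15.7-fold at 48 h, with 1 unstimulated array well above background), while the summed level, at least 92.9% of it from Kdr, was 18.7 to 25.4 and 18.7 to 24. Of 8 epithelial markers, 6 were tested and Krt8 was called higher at 48 h (3.95-fold), while its next brightest probe gave a log2 change of 0.906, under 2-fold.

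The 6 fibroblast markers moved in both directions. Dcn was called higher at both times (4.23-fold and 6.85-fold) and Pdgfra at 24 h (2.52-fold), whereas Col1a2 was called lower at both times (0.368 and 0.425 of the unstimulated level), Col3a1 at 24 h and Col1a1 at 48 h. Their summed level was 330 and 327 in unstimulated cells and between 124 and 167 in stimulated ones. The calls of Mrc1, Mpeg1 and Cdh5 were kept without any 1 array. Each other marker call was lost in 1 to 5 of the 6 fits without 1 array. Cdh5 entered the test only through stimulated arrays and Mcpt4 only through the 48 h arrays, where they were high. Their calls are therefore not taken as support. The part of the marker shifts in the changes of the family genes was not tested.

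The genes whose values over the 6 arrays were nearest to those of Il33, among 13846 genes compared by the root mean square difference of their values relative to the unstimulated mean, were Dmbt1 (0.351 log2 units), Trim10 (0.375), Tnfrsf11b (0.4), Oasl1 (0.403) and Btc (0.407). Dmbt1 encodes a mucosal scavenger protein, Tnfrsf11b osteoprotegerin, a decoy receptor for RANKL, Oasl1 an interferon-induced protein and Btc betacellulin, a ligand of the EGF receptor. Dmbt1 measured 32.4-fold higher at 24 h and 26-fold higher at 48 h, but it was not well above background in unstimulated cells. These ratios are therefore no lower limits. Trim10 and Btc were well above background on 1 unstimulated array each. For these 3 genes the distance and its rank rest in part on signals near background. Tnfrsf11b and Oasl1, above background on all arrays, were 30.7-fold and 22.3-fold higher at 24 h and 15.9-fold and 34.5-fold higher at 48 h. Likeness here means a like size of change and nothing more.

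**Figure D5:**
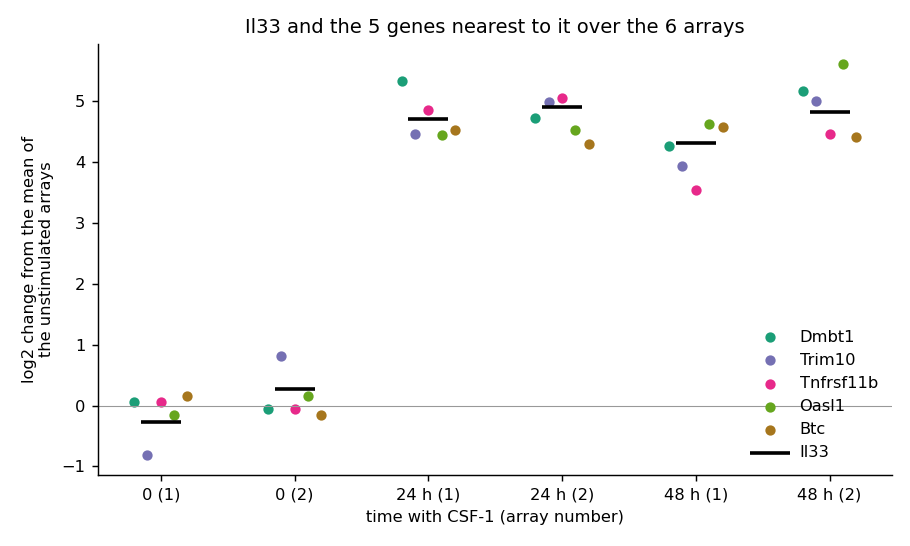
Log2 change from the mean of the unstimulated arrays (y axis) of Il33 (black bars) and of the 5 genes nearest to it (points) on each of the 6 arrays (x axis, time with CSF-1 and array number). The points follow the bars of Il33 with root mean square differences between 0.351 and 0.407 log2 units.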

How the data were processed

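RNA of N18-Fms cells was labelled with Cy3 by the low input whole-transcriptome kit of Agilent and hybridized to 6 single-color mouse arrays, 2 for each of 3 groups, which were taken from the labels. The scanner files that the authors deposited were written by Feature Extraction (version 11.0.1.1), and their processed signal is a background-subtracted intensity, not normalized between arrays; flags mark spots well above background, saturated or outlying. A second file deposited by the authors gives log2 values and holds 13 of the 14 family probes; after centring, 99.8% of its values lay within 0.05 of the log2 signals, and its baseline per probe is not explained in the sources used here. Probe coordinates are mm9 per the file headers.

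Outlier spots were left out, spots of a probe averaged, and each array's 75th percentile subtracted from log2(signal). The brightest probe stood for each of the 36028 genes that then had a value on every array, and 24648 genes that cleared the background flag on the 2 arrays of some group were tested. A limma 3.58.1 fit (R 4.3.3) of all 6 arrays, with 3 residual and 2.39 prior degrees of freedom, gave two-sided p-values, adjusted by the Benjamini-Hochberg method, for both times against unstimulated cells and for 48 h against 24 h; the fit was tested on simulated data. The number of arrays limits the precision. Named were the 10 family genes with every probe, all other family genes, up to 3 called genes of each other list with the largest mean absolute change, and the 5 genes nearest to Il33; other genes named were chosen after their values were seen. The family genes, lists and motifs were chosen with earlier results of these data known. Alternatives covered scaling, background correction, the authors' table, the filter on dim probes, the choice of probe, the fit, the block, the test and each array left out.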

Additional observations from a re-analysis of the deposited data

How the results depend on the processing

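The 24 h count of 2 family genes was 1 with normexp, with genes well above background on all arrays, and with only the arrays compared, and 3 with the next brightest probe; it ranged from 1 to 2 without 1 array and was 0 with the Student t-test of the methods after adjustment. The 48 h count of 3 was 0 with that test, and otherwise 2 to 4, 3 to 3 without 1 array; unadjusted, at 2-fold, the t-test gave 2 and 3. Between the times the count of 0 became 1, Il18bp, with normexp and with the intensity trend, and stayed at 0 to 0 without 1 array. The counts of 2 and 3 include Il18, which entered the test only through its 48 h arrays.

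Changes near 0 turned direction without passing any threshold. With quantile normalization Il1rn at 48 h was -0.10 and Il1rap between the times 0.011. With median centring Il1rl1 and Il1r1 at 24 h were -0.042 and -0.2, Il1rn at 48 h -0.082, and Il1r1 and Il1rap between the times 0.077 and 0.137. With slide as a block, which equals leaving out 24 h array 1, Il1rl1 and Il1rap between the times were -0.045 and 0.09. Without 1 array, Il1rl1 at 24 h ranged from -0.323 to 0.806, Il1rn at 48 h from -0.232 to 0.268, Il1r1 at 48 h from -0.079 to 0.032, and between the times Il33 from -0.499 to 0.008, Il1rl1 from -0.045 to 1.083 and Il1rap from -0.204 to 0.11. The causes were not tested.

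With a replicate block the counts were 2, 3 and 0, and no call of a family gene changed; the replicate differences of the groups correlated at 0.128, 0.094 and 0.199, so the numbers were not taken to pair the arrays. Over all genes, calls at 24 h ran from 580 to 1149 higher and 276 to 958 lower across settings other than the t-test, against 1121 and 400, and at 48 h from 629 to 1048 and 181 to 547, against 973 and 359; without 1 array they were as low as 344 and 79, and 545 and 102. Il18, Il1a, Il1b and Il1r2 are limited by signal over background.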
